A study of Homo sapiens with 12 samples.

Results

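The interleukin-1 (IL-1) family genes described here are 9 of the 60651 genes in the count table, and they were chosen by name. They comprise 5 cytokines (IL1A, IL1B, IL18, IL33 and IL36G), the receptor antagonist IL1RN, both chains of the IL-1 receptor (IL1R1 and IL1RAP) and the processing protease CASP1. Each symbol matched a single Ensembl identifier, and the rule uses no measured value, although the genes were proposed with earlier results of these data known.

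EGI-1 and HUCCT1, established human cholangiocarcinoma (bile duct cancer) lines that are both labelled wild type (WT), were sequenced as bulk RNA in 6 groups of 2 libraries each. EGI-1 cells were kept in DMEM and received for 72 h either DMSO (vehicle), decitabine at 500 nM, talazoparib at 200 nM, or the 2 together (the combination). HUCCT1 cells were kept in RPMI1640 and received DMSO vehicle or 1000 nM decitabine for 72 h, and both media held 10% FBS. Decitabine is a cytidine analogue that traps DNA methyltransferases, and talazoparib inhibits PARP enzymes and traps them on DNA. The library names of the talazoparib arm carry the number 50, while the labels and methods give 200 nM. No label says whether the 2 libraries of a group came from separate cultures, so p-values measure the spread between these libraries, which may be technical. In bulk RNA, fewer cells that express a gene and less of its RNA per cell cannot be told apart.

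IL-1α and IL-1β, the products of IL1A and IL1B, bind the receptor chain IL-1R1, which then recruits the shared accessory chain encoded by IL1RAP and signals through MyD88 and IRAK kinases to NF-κB. IL1RN encodes the antagonist that occupies the receptor without signalling, and caspase-1 cuts the precursors of IL-1β and IL-18 into their active forms. In epithelial and senescent cells IL-1α is known as an upstream cytokine of the secretory programme that includes IL-6 and IL-8.

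The EGI-1 libraries held 23139065 to 33181930 counts, and those of HUCCT1 32519985 to 34965627. All 6 biliary epithelial markers (KRT7, KRT8, KRT18, KRT19, EPCAM and SOX9) were detected in all 12 libraries. Their summed level lay between 7790 and 8730 CPM (counts scaled to library size) in EGI-1, between 14500 and 16300 CPM in HUCCT1 vehicle and between 8840 and 10200 CPM in HUCCT1 decitabine. With decitabine in HUCCT1, 4 of the 6 (the keratins) were called lower and 0 higher, where 13.9% of all genes passed as lower. With the combination in EGI-1, 3 of the 6 were called higher and 0 lower, where 11.1% of all genes passed as higher. The 8 macrophage and monocyte markers summed to between 7.91 and 10.5 CPM in the EGI-1 vehicle and single-agent libraries, and to between 10.5 and 26.2 CPM in the combination. Of the 4 tested there, 2 were called higher and 0 lower, where 11.1% of all genes passed as higher. From vehicle to combination CSF1R went from 101 and 102 counts to 146 and 202, and LYZ from 25 and 19 to 38 and 84. CD14 went the other way, from 96 and 76 counts to 46 and 71. PTPRC, the pan-leukocyte marker CD45, had 381 counts in EGI-1 combination replicate 2, and at most 7 in each of the other libraries. For this reason results on the combination are also given without that library. The 5 fibroblast markers summed to between 28.7 and 30.4 CPM in EGI-1 vehicle and between 42.9 and 49.8 CPM with the combination, where COL1A1 rose (log2 0.64, SE 0.10, adjusted p = 0.000326). The 3 endothelial markers went from between 19.7 and 21.2 CPM to between 28.5 and 29.8 CPM there, and 2 of them rose, VWF (61 and 60 counts against 181 and 173, log2 1.64, SE 0.20, adjusted p = 1.711e-05) and CDH5 (0.36, SE 0.11, adjusted p = 0.03281). In HUCCT1 the macrophage and monocyte markers summed to between 9.68 and 11.2 CPM with vehicle and between 15.1 and 15.5 CPM with decitabine. The fibroblast markers moved more, from at most 37.7 CPM to at most 198 CPM, mainly through COL1A1 (805 and 896 counts against 5089 and 5611), although LUM fell, from 313 and 221 counts to 150 and 114 (log2 -1.05, SE 0.20, adjusted p = 0.0001498). The endothelial markers went from between 4.1 and 5.47 CPM to between 24.9 and 26 CPM. PTPRC stayed at 3 or 4 counts in the HUCCT1 libraries, and the part of these markers in the results below was not tested.

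On GRCh38, 4 of the genes lie together on chromosome 2. IL1A (ENSG00000115008.6) spans chr2:112773925-112784493 and IL1B (ENSG00000125538.12) spans chr2:112829751-112836816, both on the minus strand. IL36G (ENSG00000136688.11) spans chr2:112973203-112985658 and IL1RN (ENSG00000136689.19) chr2:113099315-113134016, both on the plus strand. IL1R1 (ENSG00000115594.12) lies at chr2:102064544-102179874, IL1RAP (ENSG00000196083.10) at chr3:190514051-190659750 and IL33 (ENSG00000137033.11) at chr9:6215786-6257983, all on the plus strand. IL18 (ENSG00000150782.12) at chr11:112143253-112164096 and CASP1 (ENSG00000137752.24) at chr11:105025397-105035250 lie on the minus strand. IL1R1 shares 11 exon bases with the antisense gene IL1R1-AS1, which had 0 counts, and no other member shares exon bases with another annotated gene. CASP1 has close relatives next to it, among them CARD16, and how reads that match both were counted is not stated.

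Decitabine acts on methylation at CG dinucleotides, so the RefSeq promoter windows (GRCh38.p14, from 250 bases before to 50 bases after a start site) were read for 7 of the 9 genes. The 5 windows below belong to the 3 genes with the largest change under decitabine in HUCCT1 (IL1A, IL1B and IL36G) and to both receptor chains, which changed in opposite directions there. Each is printed 5′ to 3′ on the strand of its gene, with every CG in capitals.
IL1A, window 1 of 2 (chr2:112784444-112784743, minus strand): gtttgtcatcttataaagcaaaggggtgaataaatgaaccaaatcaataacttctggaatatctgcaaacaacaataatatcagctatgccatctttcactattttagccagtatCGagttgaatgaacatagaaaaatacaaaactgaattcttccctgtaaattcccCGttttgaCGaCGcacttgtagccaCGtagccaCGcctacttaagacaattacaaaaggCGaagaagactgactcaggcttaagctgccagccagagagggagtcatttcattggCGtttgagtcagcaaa
IL1B (chr2:112836730-112837029, minus strand): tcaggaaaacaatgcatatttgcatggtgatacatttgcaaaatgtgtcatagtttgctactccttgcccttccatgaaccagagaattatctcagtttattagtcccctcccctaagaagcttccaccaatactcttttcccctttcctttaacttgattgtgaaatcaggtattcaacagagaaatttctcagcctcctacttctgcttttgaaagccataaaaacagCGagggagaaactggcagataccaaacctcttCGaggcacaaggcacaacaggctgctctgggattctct
IL36G (chr2:112977756-112978055, plus strand): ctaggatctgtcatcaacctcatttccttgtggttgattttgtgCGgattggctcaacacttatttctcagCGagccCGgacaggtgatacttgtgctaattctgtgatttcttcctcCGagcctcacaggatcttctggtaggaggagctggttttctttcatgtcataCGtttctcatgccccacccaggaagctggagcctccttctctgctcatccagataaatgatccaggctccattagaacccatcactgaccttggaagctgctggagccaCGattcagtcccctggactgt
IL1R1, window 4 of 4 (chr2:102142496-102142795, plus strand): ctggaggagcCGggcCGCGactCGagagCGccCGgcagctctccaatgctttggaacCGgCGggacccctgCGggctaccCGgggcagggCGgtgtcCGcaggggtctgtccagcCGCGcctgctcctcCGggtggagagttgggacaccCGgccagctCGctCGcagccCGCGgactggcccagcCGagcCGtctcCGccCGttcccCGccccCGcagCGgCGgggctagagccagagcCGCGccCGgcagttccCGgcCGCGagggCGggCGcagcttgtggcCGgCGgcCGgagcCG
IL1RAP (chr3:190513835-190514134, plus strand): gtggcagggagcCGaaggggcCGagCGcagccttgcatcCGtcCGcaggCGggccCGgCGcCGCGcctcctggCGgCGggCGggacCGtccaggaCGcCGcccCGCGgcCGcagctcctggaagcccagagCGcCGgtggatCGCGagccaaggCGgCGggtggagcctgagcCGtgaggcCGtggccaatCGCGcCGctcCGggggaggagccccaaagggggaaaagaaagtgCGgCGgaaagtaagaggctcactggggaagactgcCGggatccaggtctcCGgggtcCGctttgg

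Both overlapping IL1A windows hold 8 CG, the IL1B window 2 and the IL36G window 6, all under the median of 14 over 35116 windows. As few CG or fewer were present in 41.6% of all windows for IL1A, in 18.2% for IL1B and in 36.8% for IL36G. Window 4 of IL1R1 holds 40 CG and the IL1RAP window 36, which 7.61% and 12.7% of all windows equal or exceed. The other IL1R1 windows hold 7, 4 and 8 CG, the 3 IL1RN windows 2, 5 and 7, and the IL33 windows 1 and 3. The AP-1 motif TGANTCA, searched on both strands, was present in 7.71% of all windows, at 2 places in either IL1A window and at 1 place in the first IL1RN window. The NF-κB consensus, present in 11.3% of all windows, was found in no window of these genes. Which start site the cells used is not known from gene counts, and methylation was not measured in these files.

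In vehicle-treated cells the 2 lines differed most in the balance of agonists and antagonist. To compare genes with each other, CPM were divided by exon length (RPKM). In EGI-1 vehicle, IL1A had the highest mean level at 93.3 RPKM, followed by IL1B at 22.9, IL18 at 16.4 and IL1RN at 1.25 RPKM. IL1RAP at 0.899, CASP1 at 0.431 and IL1R1 at 0.254 RPKM followed, and IL36G was at 0.0979 RPKM. No neighbours in this order overlapped. In HUCCT1 vehicle, IL18 came first at 69.7 RPKM, ahead of IL1RN at 38.8, IL1A at 11.8, IL1RAP at 4.74 and IL1B at 3.94 RPKM. CASP1 at 1.91, IL1R1 at 0.653 and IL36G at 0.132 RPKM were the lowest of the genes with more than 1 count in a library, and here too no neighbours overlapped.

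IL33, which encodes a nuclear alarmin cytokine, was at 0 counts in 10 of 12 libraries and at 1 count in EGI-1 talazoparib replicate 2 and HUCCT1 decitabine replicate 1. It was tested in no comparison and is given no fold change. A count of 0 allows up to 3 counts per library.

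Between the vehicle groups, all 7 members other than IL33 and IL36G passed edgeR's quasi-likelihood test, where 55.8% of 25096 genes did, 28.5% as higher in HUCCT1 and 27.3% as lower. IL1A was lower in HUCCT1 by a log2 fold change of -2.98 (SE 0.10, adjusted p = 5.177e-16) and IL1B by -2.54 (SE 0.09, adjusted p = 3.019e-16). IL1RN was higher in HUCCT1 by 4.96 (SE 0.11, adjusted p = 5.053e-19), the largest difference among the members. IL1RAP (2.40), CASP1 (2.14), IL18 (2.09) and IL1R1 (1.35) were also higher in HUCCT1, with adjusted p of at most 1.591e-05. IL36G had 6 and 2 counts in EGI-1 and 10 and 1 in HUCCT1, and the groups overlapped. Line, medium and the L number in the library names cannot be told apart in this comparison.

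**Figure D1:**
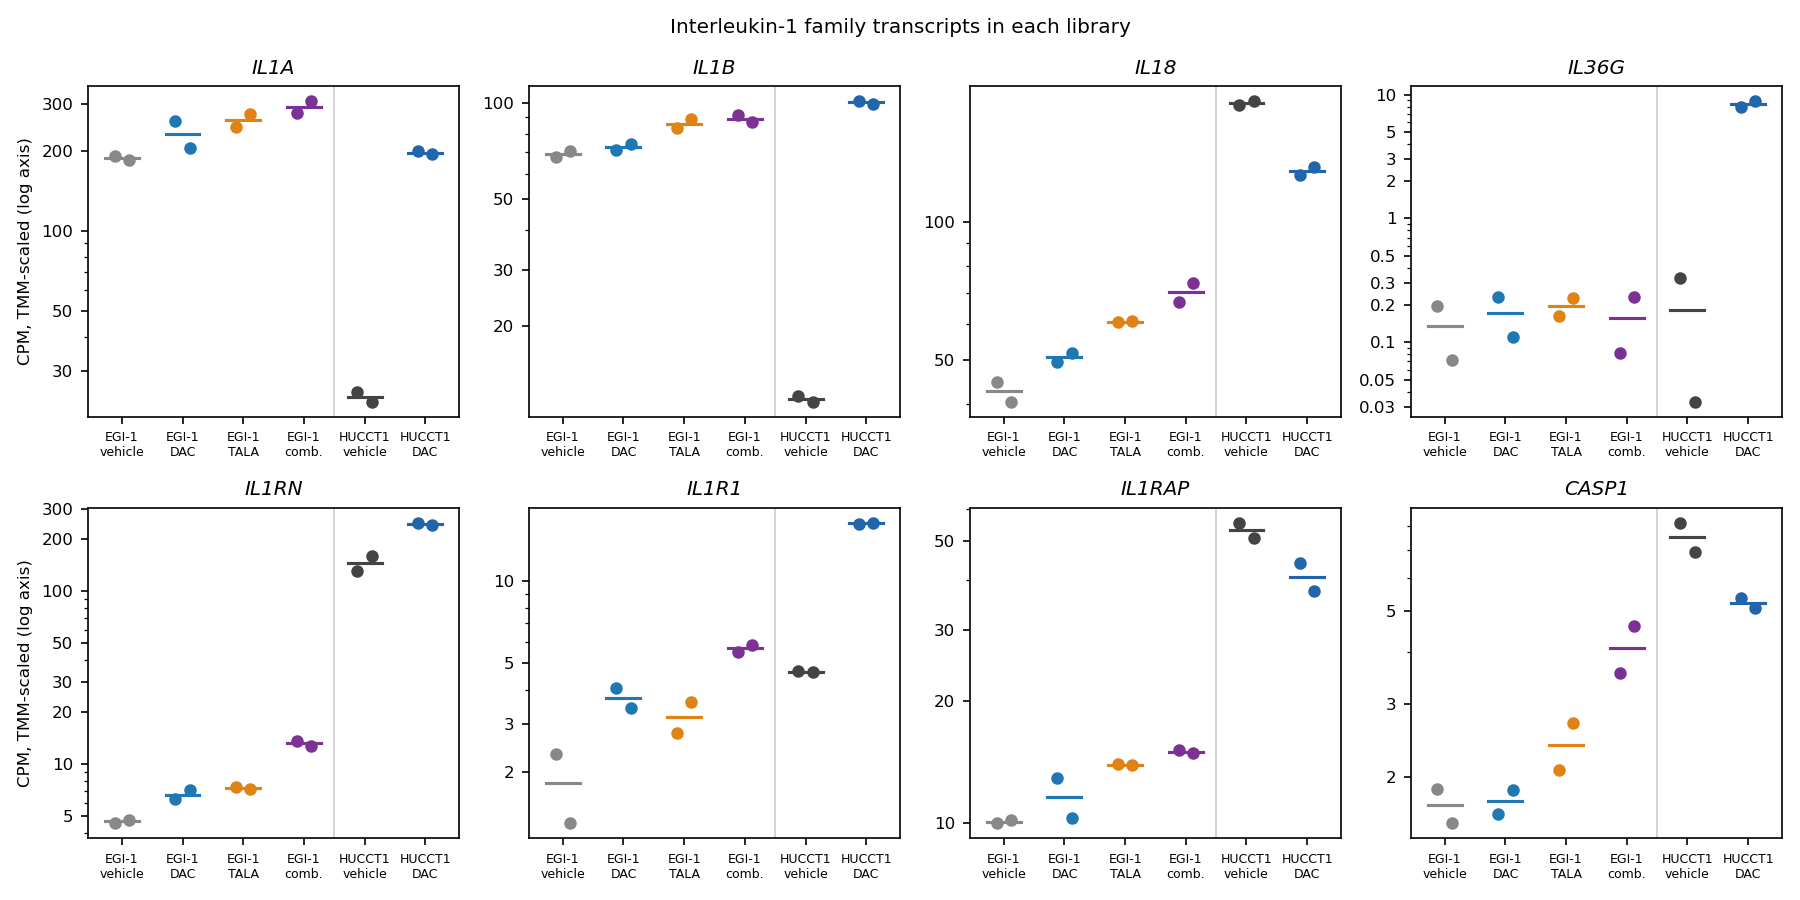
TMM-scaled CPM (log axis, scaled per gene) of 8 members in each of the 12 libraries, with points for libraries and bars for the mean of 2 (DAC, decitabine; TALA, talazoparib; comb., both). IL1A and IL1B of HUCCT1 vehicle, at 23.9 and 11.9 CPM on average, sit far below every other group, while IL1RN, IL1RAP and IL18 are higher in HUCCT1 than in EGI-1.

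The question for HUCCT1 was how 1000 nM decitabine alone changed expression after 72 h. IL1A, IL1B, IL1R1 and IL1RN rose, IL18, IL1RAP and CASP1 fell, and IL36G was near the detection floor with vehicle and well above it with decitabine. IL36G passed the filter on low counts only through its decitabine libraries, so its difference is a description and is left out of the counts. Of the other 7 tested members 4 passed as higher and 3 as lower, where 33.5% of 22479 genes passed, 19.6% as higher and 13.9% as lower. The median log2 fold change of the 7 was 0.75, beside 0.00198 over all genes tested.

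IL1A, the membrane-bound and nuclear agonist, was at 24.9 and 22.9 CPM in the vehicle libraries and at 199 and 195 CPM with decitabine. The groups lay far apart, and the fold change was 8.19 (log2 3.03, SE 0.12, adjusted p = 1.617e-16 by edgeR's quasi-likelihood test). IL1B, the secreted agonist, went from 12.1 and 11.6 CPM to 101 and 99.2 CPM, a fold change of 8.39 (log2 3.07, SE 0.12, adjusted p = 2.918e-16). Both agonists thus rose by nearly the same factor, and the ratio of IL1A to IL1B in RPKM was 3.06 and 2.95 in the vehicle libraries and 2.94 and 2.93 with decitabine.

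IL36G, an epithelial cytokine that signals through a different receptor with the shared accessory chain, had 10 and 1 counts in the vehicle libraries and 256 and 263 counts with decitabine. The ratio of the summed counts, scaled to library totals, was 48.5, with a 95% counting interval from 26.9 to 97.7 that covers counting error only. The vehicle libraries differed from each other, and the fitted log2 fold change moved between 4.63 and 7.81 when 1 or the other was left out. In CPM IL36G with decitabine (8.43 ± 0.63, SD, n = 2) stayed far below IL1A (197 ± 3.1) and IL1B (100.2 ± 1.4), and in RPKM the means were 6.14, 97.7 and 33.3.

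IL1RN, the receptor antagonist, was already abundant at 131 and 159 CPM and reached 249 and 241 CPM with decitabine. The groups did not overlap, and its fold change of 1.68 (log2 0.75, SE 0.11, adjusted p = 8.397e-06) was smaller than those of the agonists. IL1R1, the signalling receptor, rose from 4.68 and 4.63 CPM to 16.2 and 16.4 CPM, a fold change of 3.48 (log2 1.80, SE 0.16, adjusted p = 1.457e-09). Its accessory chain IL1RAP moved the other way, from 55.5 and 50.7 CPM to 43.9 and 37.5 CPM (log2 -0.39, SE 0.12, adjusted p = 0.01264). Each IL1RAP library with decitabine lay below both vehicle libraries, but the call was lost without vehicle replicate 1 (adjusted p = 0.08774) or decitabine replicate 2 (adjusted p = 0.2033).

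IL18, a cytokine stored in epithelial cells as a precursor, was at 180 and 183 CPM with vehicle and at 126 and 132 CPM with decitabine. It fell in both decitabine libraries below both vehicle libraries (log2 -0.50, SE 0.11, adjusted p = 0.000532), and its adjusted p stayed at or under 0.01137 when any of the 4 libraries was left out. CASP1, the protease, went from 8.17 and 6.94 CPM to 5.37 and 5.10 CPM (log2 -0.54, SE 0.18, adjusted p = 0.02257). Its groups did not overlap either, but DESeq2 gave an adjusted p of 0.07171 and 3 of the 4 fits without a library gave between 0.05627 and 0.1797.

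**Figure D2:**
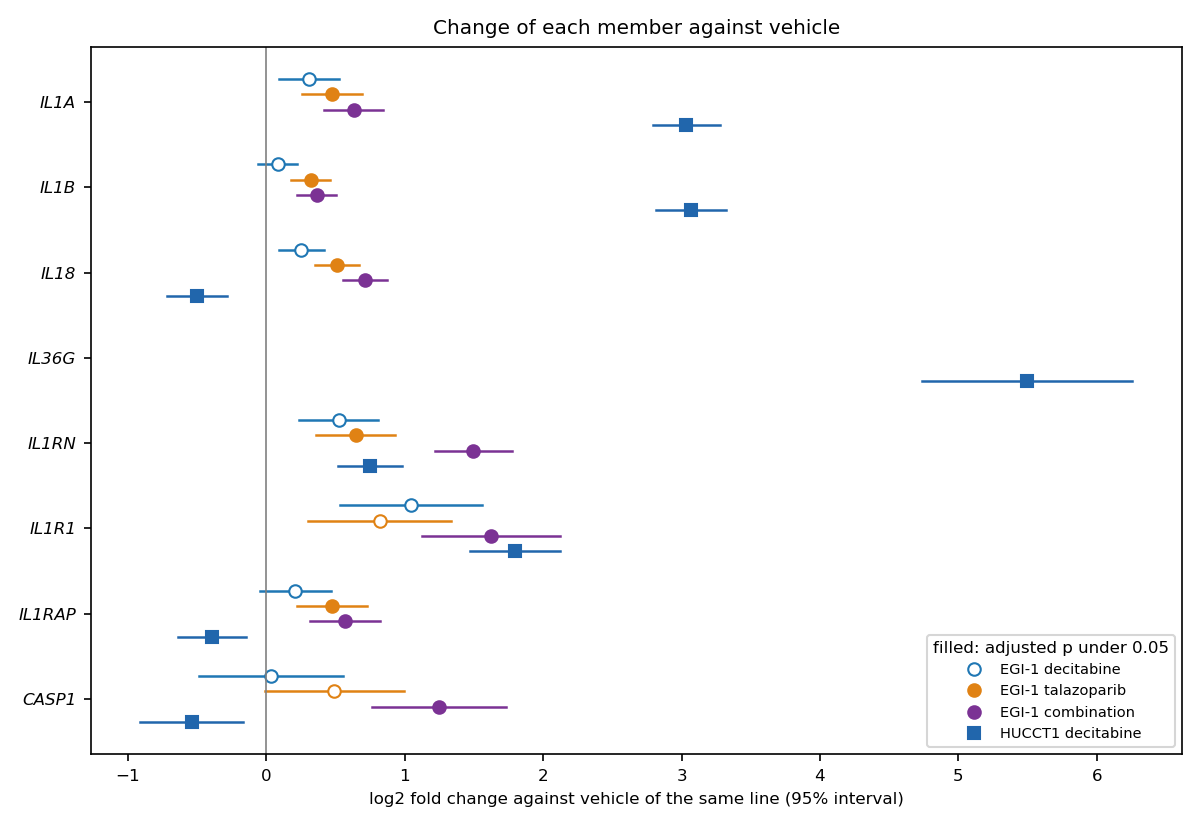
Log2 fold change of each member against vehicle of the same line, with the 95% interval from edgeR; filled symbols passed an adjusted p of 0.05 (IL36G is a description only). In HUCCT1 (squares) IL1A, IL1B and IL36G lie at 3.03 or above and IL18, IL1RAP and CASP1 below 0, while in EGI-1 (circles) every fold change lies above 0 and the combination passed for 7 of 7.

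In EGI-1 the study asked what decitabine and talazoparib do alone and together. The combination raised all 7 tested members against vehicle, where 18.7% of 22406 genes passed and 11.1% passed as higher. Their median log2 fold change was 0.71, beside -0.0248 over all genes tested. Talazoparib alone raised 5 of 7, where 4.12% of all genes passed and 2.83% passed as higher. Decitabine alone gave 0 calls among the 7 in edgeR's quasi-likelihood test and 0 in DESeq2, where 0.544% of all genes passed in edgeR. IL1A and IL1R1 were called there without the filter on low counts and without decitabine replicate 2, and 4 of the 7 (IL1A, IL1RN, IL1R1 and IL18) had an unadjusted p under 0.05, as did 9.14% of all genes. All EGI-1 arms share the same vehicle libraries, so their values are given side by side.

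Among the agonists, IL1A was at 191 and 185 CPM in the EGI-1 vehicle libraries, 258 and 205 CPM with decitabine, 247 and 275 CPM with talazoparib and 278 and 307.6 CPM with the combination. All 6 treated libraries lay above both vehicle libraries, and the decitabine pair overlapped with the talazoparib pair. The log2 fold change against vehicle was 0.31 (SE 0.10, adjusted p = 0.2938) for decitabine, 0.47 (SE 0.10, adjusted p = 0.01903) for talazoparib and 0.63 (SE 0.10, adjusted p = 0.0009339) for the combination. The decitabine value lay between 0.13 and 0.46 when 1 library was left out, and was called when decitabine replicate 2 was left out (adjusted p = 0.0005463) or low-count genes were kept (adjusted p = 0.001038). IL1A remained the member with the highest level in every EGI-1 library, with a group mean of 145 RPKM in the combination.

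IL1B in EGI-1 had 67.6 and 70.4 CPM with vehicle, 71.1 and 74.4 CPM with decitabine, 83.3 and 88.6 CPM with talazoparib and 91.3 and 87.2 CPM with the combination. The talazoparib and combination libraries overlapped with each other and lay above the other 4. The log2 fold change was 0.08 with decitabine (95% interval -0.06 to 0.22, adjusted p = 0.7911), 0.32 with talazoparib (SE 0.07, adjusted p = 0.007758) and 0.36 with the combination (SE 0.07, adjusted p = 0.0008577). It was the smallest combination effect among the 7 members.

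IL18 in EGI-1 was at 44.8 and 40.5 CPM with vehicle, 49.6 and 51.7 CPM with decitabine, 60.3 and 60.8 CPM with talazoparib and 67.02 and 73.6 CPM with the combination. No 2 of these groups overlapped. IL18 rose with talazoparib (log2 0.51, SE 0.08, adjusted p = 0.0006014) and with the combination (0.71, SE 0.08, adjusted p = 3.046e-06), and its value with decitabine was 0.25 (SE 0.08, adjusted p = 0.2027). The talazoparib calls of IL1A and IL1B were lost without vehicle replicate 1, vehicle replicate 2 or talazoparib replicate 2, and those of IL1RN and IL1RAP without any 1 of the 4 vehicle and talazoparib libraries. IL18 alone kept its talazoparib call whichever EGI-1 library was left out, with an adjusted p of at most 0.04833. IL36G had between 2 and 8 counts in all 8 EGI-1 libraries and did not pass the filter on low counts there.

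IL1RN, the antagonist, had 4.56 and 4.78 CPM with vehicle, 6.28 and 7.08 CPM with decitabine, 7.37 and 7.21 CPM with talazoparib and 13.7 and 12.8 CPM with the combination. Both combination libraries lay well above all others, and the single-agent libraries above vehicle. The fold change in the combination was 2.82 (log2 1.496, SE 0.13, adjusted p = 3.795e-07), against 0.64 (SE 0.14, adjusted p = 0.008649) on the log2 scale for talazoparib and 0.52 (SE 0.14, adjusted p = 0.118) for decitabine. IL1RN was the only member called higher in the combination than in both single agents, by 0.97 (SE 0.13, adjusted p = 9.166e-05) against decitabine and by 0.85 (SE 0.13, adjusted p = 0.0009784) against talazoparib. Both combination libraries also lay above every single-agent library for IL1A, IL18, IL1R1, IL1RAP and CASP1, and without the filter on low counts IL1R1 (adjusted p = 0.005623) and CASP1 (adjusted p = 0.04862) were called against talazoparib. Both were also called against talazoparib without 1 or the other decitabine library (adjusted p between 0.02332 and 0.04536), and IL1R1 with only the 4 libraries compared (adjusted p = 0.01137).

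IL1R1, at 71 and 36 counts in the vehicle libraries, was among the lowest members in EGI-1. Its levels were 2.33 and 1.29 CPM with vehicle, 4.05 and 3.43 CPM with decitabine, 2.77 and 3.61 CPM with talazoparib and 5.51 and 5.82 CPM with the combination. The combination libraries lay above all others, and the vehicle libraries below all others and far from each other. IL1R1 rose in the combination by 1.63 (SE 0.24, adjusted p = 9.989e-05), the largest log2 fold change among the 7, with 1.04 (SE 0.24, adjusted p = 0.06959) for decitabine and 0.82 (SE 0.25, adjusted p = 0.07476) for talazoparib. That rank was lost without vehicle replicate 2, where IL1R1 was at 1.28, while IL1RN stayed at 1.45 or above whichever library was left out. Because the IL1R1 vehicle libraries differed, leaving out 1 or the other moved the combination value to between 1.28 and 2.12, the decitabine value to between 0.69 and 1.53 and the talazoparib value to between 0.46 and 1.31. The decitabine value was called when low-count genes were kept (adjusted p = 0.0009143) or decitabine replicate 2 was left out (adjusted p = 0.02898). The talazoparib value was called with low-count genes kept (adjusted p = 0.0114), with only the 4 libraries compared (adjusted p = 0.04455), without vehicle replicate 1 (adjusted p = 0.03824) and without 1 or the other decitabine library (adjusted p = 0.03104 and 0.03071).

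IL1RAP, the accessory chain, was at 9.97 and 10.2 CPM with vehicle, 12.9 and 10.3 CPM with decitabine, 13.97 and 13.91 CPM with talazoparib and 15.2 and 14.9 CPM with the combination. The decitabine libraries spanned most of the distance between vehicle and talazoparib. IL1RAP rose with talazoparib (log2 0.47, SE 0.12, adjusted p = 0.03241) and with the combination (0.57, SE 0.12, adjusted p = 0.002726), and with decitabine it was at 0.21 (95% interval -0.05 to 0.47, adjusted p = 0.6557). The talazoparib call was lost with the replicate number as a block (adjusted p = 0.05741) and without any 1 of the vehicle or talazoparib libraries (adjusted p between 0.1437 and 0.281).

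CASP1 had 57 and 43 counts in the vehicle libraries and 49 and 51 with decitabine, 51 and 94 with talazoparib and 87 and 140 with the combination. In CPM these were 1.87 and 1.55, 1.63 and 1.86, 2.08 and 2.69, and 3.55 and 4.61. Vehicle and decitabine overlapped, and the combination lay above all others. CASP1 rose in the combination by 1.25 (SE 0.23, adjusted p = 0.0008615) against vehicle and by 1.22 (SE 0.23, adjusted p = 0.002592) against decitabine, with 0.49 (SE 0.24, adjusted p = 0.3234) for talazoparib and 0.03 (SE 0.25, adjusted p = 0.9838) for decitabine. The higher of the combination libraries is the one with the PTPRC counts. Without it the value against vehicle was 1.05 (adjusted p = 0.02352) and against decitabine 1.01 (adjusted p = 0.05817).

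Without that library all 7 members were still called higher against vehicle, where 6.88% of 23508 genes passed as higher and 3.85% as lower, with log2 fold changes of 0.56 for IL1A, 0.40 for IL1B, 0.65 for IL18, 1.55 for IL1RN, 1.59 for IL1R1 and 0.58 for IL1RAP. Against decitabine alone, the combination was higher for IL1RN, CASP1, IL18 (0.46, SE 0.07, adjusted p = 0.0007505) and IL1B (0.28, SE 0.07, adjusted p = 0.01375), 4 of 7 members where 7.68% of all genes passed and 4.42% passed as higher. IL1A (0.32, adjusted p = 0.07163), IL1RAP (0.36, adjusted p = 0.07848) and IL1R1 (0.58, adjusted p = 0.1222) did not pass in edgeR, while DESeq2 called IL1A (adjusted p = 0.01356), as did edgeR without the filter on low counts (adjusted p = 0.0001159). Without decitabine replicate 1 IL1A (0.4997, adjusted p = 4.202e-05) and IL1RAP (0.53, adjusted p = 0.01156) were called. The IL1B call was lost without combination replicate 1 (adjusted p = 0.1148) and with only the 4 libraries compared (adjusted p = 0.06834). Against talazoparib alone, IL1RN was the 1 member of 7 called, where 1.92% of all genes passed and 1.36% passed as higher. The other 6 had 95% intervals of the difference that ran from -0.15 to 0.34 for IL1RAP and -0.10 to 0.18 for IL1B, and up to 1.27 for IL1R1 and 1.22 for CASP1.

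The combination was also compared with the sum of the single-agent effects on the log2 scale. None of the 7 members departed from that sum by edgeR's quasi-likelihood test (every adjusted p = 0.9999) or by DESeq2, where 0.161% of all genes passed. CASP1 departed by 0.72 (SE 0.33, 95% interval 0.03 to 1.42) and was alone in having an unadjusted p under 0.05 in edgeR, as did 3.38% of all genes. Without combination replicate 2, the library with the PTPRC counts, its departure was 0.53. IL1RN departed by 0.33 (95% interval -0.06 to 0.72) and the other 5 by between -0.24 and -0.04. The intervals leave room for departures down to -0.93 for IL1R1 and up to 1.42 for CASP1.

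The decitabine effect was then compared between the lines in a fit of all 12 libraries. Leaving out IL36G, it differed for 4 of 7 members, 2 in each direction, where 15.9% of 25096 genes passed, 8.74% as higher in HUCCT1 and 7.20% as lower. The effect was higher in HUCCT1 by 2.75 for IL1A (SE 0.14, adjusted p = 5.082e-12) and by 3.002 for IL1B (SE 0.11, adjusted p = 1.259e-13), on the log2 scale. It was lower by -0.74 for IL18 (SE 0.11, adjusted p = 6.596e-05) and by -0.59 for IL1RAP (SE 0.16, adjusted p = 0.01641), which fell in HUCCT1 and were not called in EGI-1. No difference was called for IL1RN (0.24, 95% interval -0.08 to 0.57, adjusted p = 0.3438), IL1R1 (0.77, 95% interval 0.17 to 1.37, adjusted p = 0.07552) or CASP1 (-0.55, 95% interval -1.18 to 0.07, adjusted p = 0.2477). The IL1R1 difference was 1.11 and called without EGI-1 vehicle replicate 2 (adjusted p = 0.01422), and 0.26 without EGI-1 vehicle replicate 1. The IL1RAP call was lost without any 1 of EGI-1 vehicle replicates 1 and 2, EGI-1 decitabine replicate 1, HUCCT1 vehicle replicate 1 and HUCCT1 decitabine replicate 2 (adjusted p between 0.05334 and 0.1216). IL36G had at most 10 counts in 10 of the 12 libraries and passed the filter only through HUCCT1 decitabine, so its fitted difference is no test. The dose (1000 against 500 nM), the medium and the L number in the library names differ with the line and cannot be told apart from it.

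The members changed their proportions as well as their levels. Within a library, the summed RPKM of IL1A and IL1B was 96.0 and 89.9 times that of IL1RN in EGI-1 vehicle, 90.1 and 66.6 times with decitabine, 76.0 and 85.7 times with talazoparib and 45.9 and 52.8 times with the combination. In HUCCT1 the same ratio was 0.466 and 0.357 with vehicle, so the antagonist transcript exceeded both agonists together, and 1.98 and 2.01 with decitabine, where the agonists exceeded it. The ratio was thus lower in EGI-1 with the combination and higher in HUCCT1 with decitabine, with no overlap between treated and vehicle libraries in either line. The ratio was not tested here, and an exact permutation test of 2 against 2 libraries cannot give a two-sided p under 0.333. The accessory chain IL1RAP exceeded IL1R1 in all 12 libraries, by 7.54 and 6.97 times in HUCCT1 vehicle and 1.73 and 1.45 times with decitabine. In EGI-1 that ratio was 2.72 and 5 with vehicle, 2.02 and 1.9 with decitabine, 3.21 and 2.45 with talazoparib and 1.75 and 1.62 with the combination. The talazoparib libraries overlapped with vehicle.

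**Figure D3:**
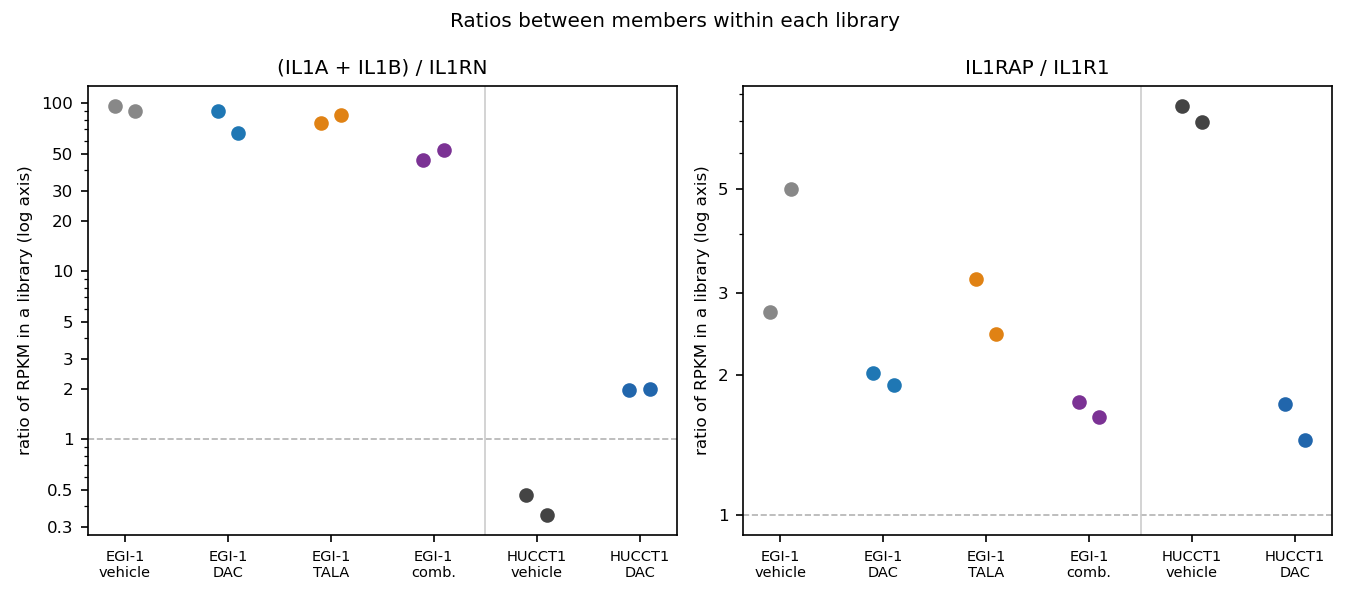
Ratio of transcript levels within each library, in RPKM on a log axis, for both agonists over the antagonist (left) and for the accessory chain over the signalling receptor (right), with 1 point per library and a dashed line at equal levels. The agonist ratio of HUCCT1 crosses 1, from 0.466 and 0.357 to 1.98 and 2.01, while EGI-1 stays between 45.9 and 96.0.

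The region from IL1A to IL1RN on chromosome 2, at chr2:112773925-113134016, spans 360 kb and holds 16 genes of the table. In HUCCT1, 8 of them were tested beside IL36G, and 5 rose with decitabine and 0 fell, where 19.6% of all genes passed as higher and 13.9% as lower. The 5 include IL1A, IL1B and IL1RN, which are counted above as members, and IL1A and IL1RN set the ends of the region. The count is therefore no separate result. The others that rose were IL36RN, the antagonist of the IL-36 receptor (log2 2.47, SE 0.28, adjusted p = 9.76e-08), and IL37, a family member that dampens inflammation (0.57, SE 0.19, adjusted p = 0.02275). IL36RN went from 0.955 and 0.694 CPM to 5.12 and 4.12 CPM, and IL37 from 124 and 147 counts to 195 and 216. The remaining 3 tested genes, a long non-coding RNA, an unclassified transcript and the pseudogene XIAPP3, did not pass. In EGI-1 with the combination, 7 genes of the region were tested, and IL1A, IL1B, IL36RN (1.07, SE 0.36, adjusted p = 0.04471) and IL1RN rose, while 0 fell, where 11.1% of all genes passed as higher. All of these but IL36RN are members counted above. IL36RN had 30 and 19 counts with vehicle and 53 and 43 with the combination. The IL-36 genes IL36A and IL36B had at most 5 and 4 counts in any library, and IL1F10 at most 10.

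**Figure D4:**
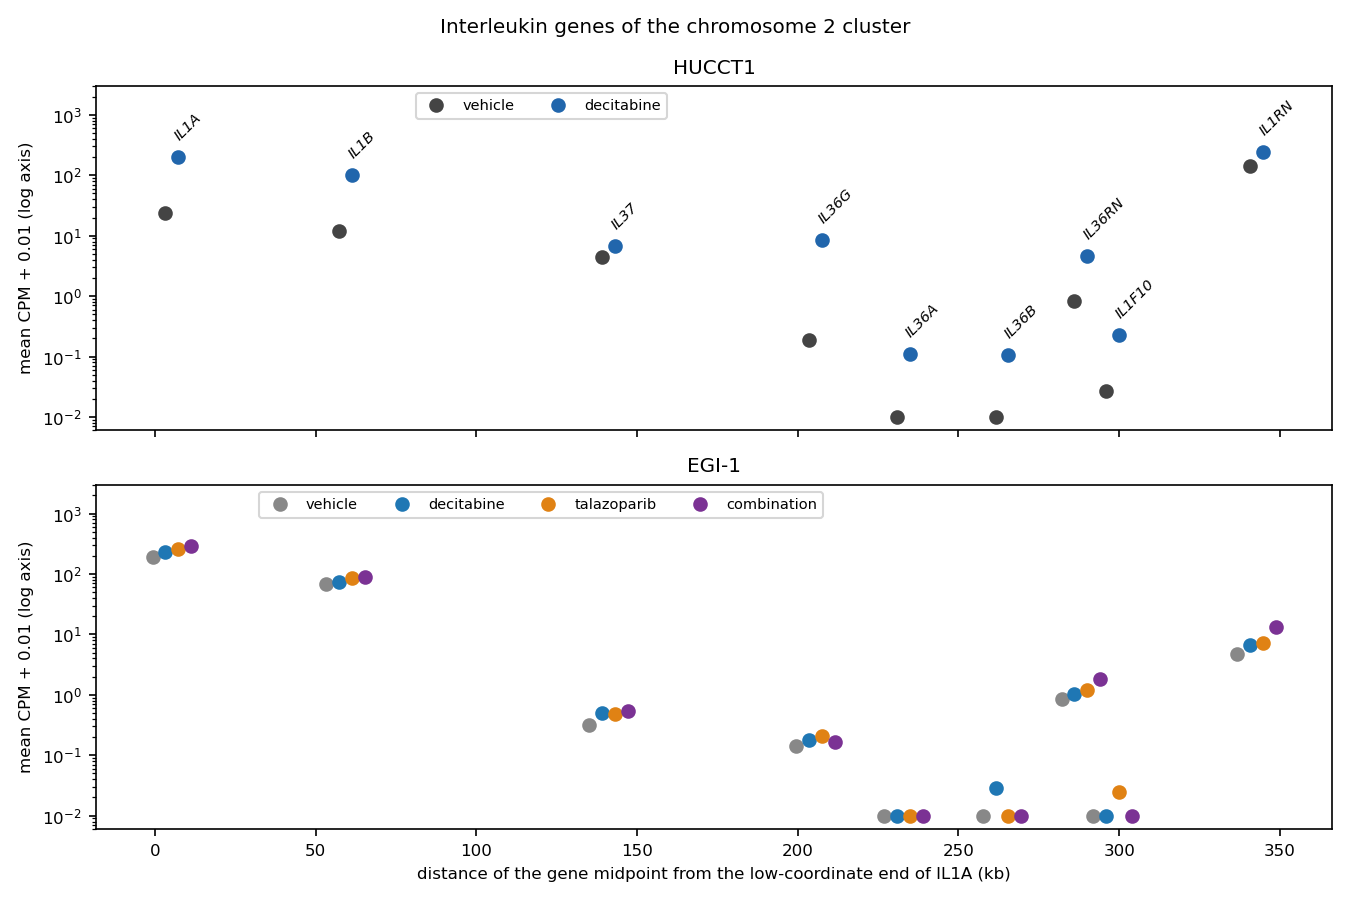
Mean CPM plus 0.01 (log axis) of the 9 interleukin genes between IL1A and IL1RN against their position, in kb from the low-coordinate end of IL1A, for both lines, with points of the same gene shifted sideways by treatment. In HUCCT1 each decitabine point lies above its vehicle point, from 145 to 245 CPM for IL1RN and from 0.181 to 8.43 CPM for IL36G; IL36A, IL36B and IL1F10 are too low to be tested.

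The rest of the pathway was read from 5 lists with 75 genes in all. In EGI-1 with the combination 58 were tested. Without CXCL5 and NLRP1, which passed the filter only with the combination libraries, 22 of 56 rose and 7 fell, with a median log2 fold change of 0.14, where 11.1% of all genes passed as higher and 7.61% as lower. Of these 56, 15 were called higher and 4 lower without combination replicate 2, where 6.88% of all genes passed as higher and 3.85% as lower. In HUCCT1 with decitabine 64 were tested. Without 5 that passed the filter only through the decitabine libraries (AIM2, CARD18, CSF3, IL1RAPL1 and PELI2), 32 of 59 rose and 4 fell, with a median of 0.59, where 19.6% of all genes passed as higher and 13.9% as lower. Decitabine alone in EGI-1 raised 4 of 58 and lowered 0, where 0.518% of all genes passed as higher. Talazoparib raised 8 and lowered 1, where 2.83% passed as higher and 1.29% as lower.

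Among the other receptors, IL1R2, the decoy receptor that binds IL-1 without signalling, rose in EGI-1 with the combination (log2 1.33, SE 0.12, adjusted p = 6.139e-07), from 194 and 208 counts to 412 and 551. IL1RAPL1 was the other of 2 receptor genes called among 4 tested there, at 0.81, where 11.1% of all genes passed as higher. In HUCCT1, leaving out IL1RAPL1, 3 of 5 tested receptor genes rose with decitabine and 1 fell, where 19.6% of all genes passed as higher and 13.9% as lower. IL1R2 (0.83), IL18R1, a chain of the IL-18 receptor (0.76), and IL1RL1, the IL-33 receptor (0.59), rose. IL1RAPL1 had 2 counts over both vehicle libraries and 41 with decitabine. The IL1RAPL1 ratio, scaled to library totals, was 21.1, with a 95% counting interval from 5.47 to 180. SIGIRR, an inhibitory receptor of the family, fell (-0.40, SE 0.12, adjusted p = 0.009019).

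Of the signalling adaptors and kinases, 5 of 15 rose and 2 fell in EGI-1 with the combination, none by more than 0.62, where 11.1% of all genes passed as higher and 7.61% as lower. PELI1, an E3 ligase of the pathway, led at 0.62 (SE 0.11, adjusted p = 0.0005922), followed by the adaptor MYD88 at 0.37, and IKBKB, a kinase of the NF-κB pathway, fell by 0.40. Without combination replicate 2 these counts were 2 higher and 1 lower, beside 6.88% and 3.85% of all genes. In HUCCT1 with decitabine, leaving out PELI2, 3 of 15 rose and 1 fell, where 19.6% of all genes passed as higher and 13.9% as lower. The kinase IRAK2 (1.42, SE 0.11, adjusted p = 1.828e-10), PELI1 (1.41) and the negative regulator IRAK3 (1.05) rose, and TAB1 fell (-0.49, SE 0.12, adjusted p = 0.0021).

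Of the inflammasome and processing genes, 3 of 13 rose and 1 fell in EGI-1 with the combination when NLRP1 was left out, where 11.1% of all genes passed as higher and 7.61% as lower. Without combination replicate 2, 1 was called higher (NLRP3) and 1 lower (CAPN2), beside 6.88% and 3.85% of all genes. NLRP3, the sensor of the best known inflammasome, went from 503 and 479 counts to 1074 and 1473 (log2 1.45, SE 0.09, adjusted p = 1.068e-08), and with talazoparib alone it rose by 1.10 (SE 0.09). NLRP1, another sensor, had 1 and 0 counts with vehicle and 15 and 185 counts with the combination, the higher in the library with the PTPRC counts, and did not pass (adjusted p = 0.07059). Without that library its value was 4.84 with an adjusted p of 0.01189, but NLRP1 passed the filter in EGI-1 only through the combination. In HUCCT1 with decitabine NLRP1 rose from 108 and 138 counts to 838 and 711 (2.62, SE 0.16, adjusted p = 1.181e-12). CARD18, an inhibitor of caspase-1, had 2 counts over both vehicle libraries and 60 with decitabine, a ratio of 30.8 when scaled to library totals, with a 95% counting interval from 8.17 to 260. CAPN1 (-0.38), a calpain protease, and PYCARD (-0.37), the adaptor between sensors and caspase-1, fell in HUCCT1. Leaving out CARD18 and AIM2, 1 of 13 rose and 2 fell there, where 19.6% of all genes passed as higher and 13.9% as lower.

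Of the 5 lists, the 25 genes known to respond to IL-1 differed most between the lines in their decitabine effect. Of 24 tested in the fit of all 12 libraries, the effect was higher in HUCCT1 for 20 and lower for 0, where 8.74% of all genes passed as higher. The median difference was 3.10 on the log2 scale, and dose and medium differ with the line. In EGI-1, decitabine alone raised 4 of 22 tested and lowered 0, with a median of 0.23, where 0.518% of all genes passed as higher. In HUCCT1 with decitabine 23 were tested beside CSF3, and all 23 rose, with a median log2 fold change of 3.24, beside 0.00198 over all genes, of which 19.6% passed as higher. The largest differences were those of CSF3, the granulocyte growth factor, with 0 and 2 counts against 7010 and 8225, and of the chemokine CXCL6, with 42 counts in each vehicle library against 3885 and 4366. The CSF3 ratio, scaled to library totals, was 7830, with a 95% counting interval from 2170 to 64600. The neutrophil chemokines CXCL1 (6.15, SE 0.15, adjusted p = 1.977e-20), CXCL3 (6.23) and CXCL8 (5.54), the chemokines CCL20 (6.52) and CCL2 (5.26) and the cytokine IL6 (4.86, SE 0.14, adjusted p = 4.896e-19) followed. CXCL8 rose from 583 and 523 counts to 25142 and 27471, and IL6 from 202 and 252 to 6522 and 6963.

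In EGI-1 with the combination, leaving out CXCL5, 21 of the 25 response genes were tested, 11 rose and 4 fell, with a median of 0.46, where 11.1% of all genes passed as higher and 7.61% as lower. Without combination replicate 2, 9 were called higher and 2 lower, beside 6.88% and 3.85% of all genes. CSF3 rose from 2 and 5 counts to 28 and 45 (log2 3.40, SE 0.49, adjusted p = 9.675e-05), MMP1, a collagenase, from 1.34 and 1.33 CPM to 6.58 and 6.68 CPM (2.30, SE 0.20, adjusted p = 3.173e-07), ICAM1, an adhesion molecule, by 1.01 and CSF2, a myeloid growth factor, by 0.99. CXCL5 had 4 and 2 counts with vehicle and 8 and 40 with the combination, the higher in replicate 2. NFKBIA, the NF-κB inhibitor that NF-κB itself induces, fell in EGI-1 with the combination (-0.65, SE 0.08, adjusted p = 1.164e-05) and rose in HUCCT1 with decitabine (1.23, SE 0.12, adjusted p = 8.239e-09). These are different treatments. With decitabine alone in EGI-1 its mean was 155.4 CPM, beside 154.2 CPM with vehicle, 123.9 CPM with talazoparib and 98.7 CPM with the combination. CXCL8, with 1214 and 1161 counts in EGI-1 vehicle and 961 and 1373 in the combination, was not called there.

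**Figure D5:**
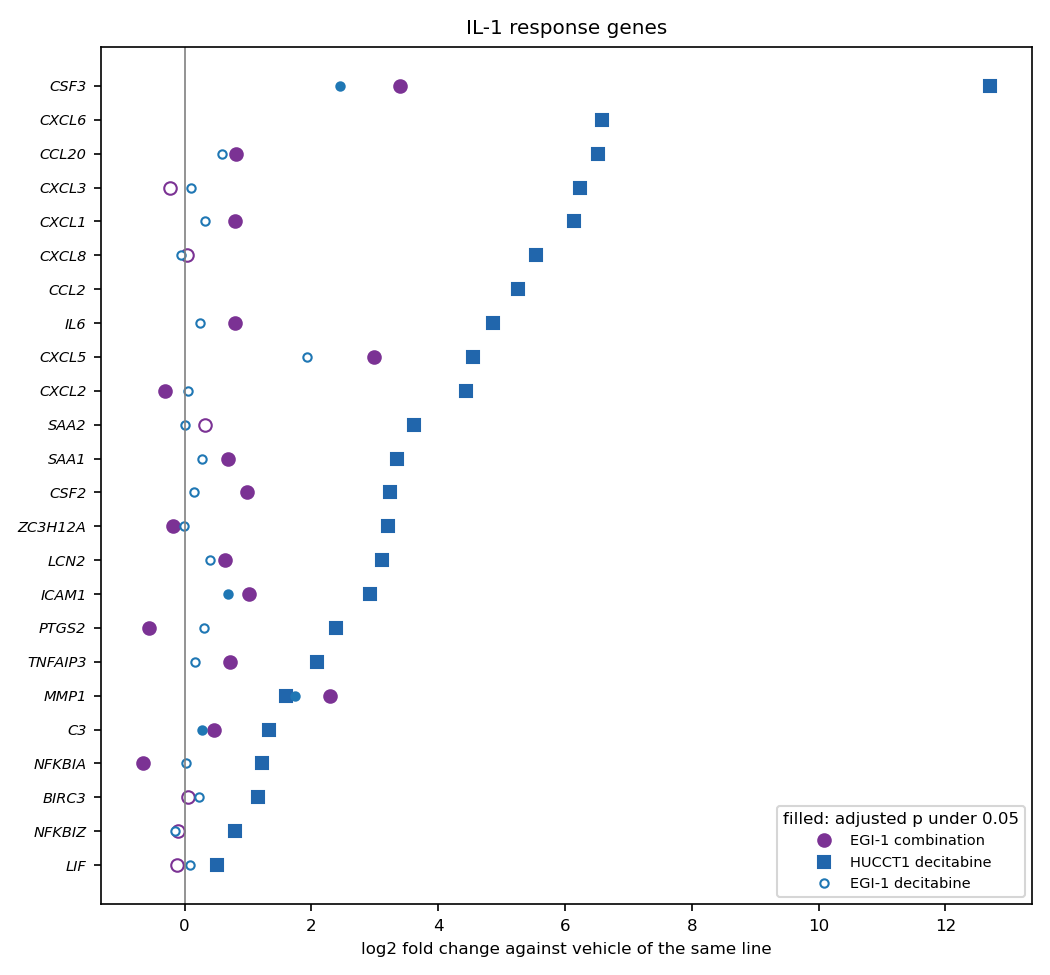
Log2 fold change against vehicle of the same line for the 24 IL-1 response genes tested in HUCCT1, with filled symbols for an adjusted p under 0.05. HUCCT1 decitabine (squares) lies above 0 for every gene plotted, while the EGI-1 combination (large circles) lies above and below 0; the fitted CSF3 value in HUCCT1 rests on 2 vehicle counts.

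Over the 8 EGI-1 libraries the 7 tested members varied together, with Pearson r of log2 CPM between pairs from 0.663 (IL1B and IL1R1) to 0.955 (IL1A and IL1RAP). These values describe libraries that share the same arms and are given with no p. Of the 13707 genes whose log2 CPM averaged 1 or more, those most like IL1A were RPL7L1 (r = 0.994), TM4SF1 and PSME4, and those most like IL1RN were ARHGEF18 (r = 0.996), SPHK1 and RNF144B. IL1B was closest to WNK4 (r = 0.985), IL18 to ADAT2 (r = 0.994), IL1R1 to POU2F2 (r = 0.983), IL1RAP to TANC2 (r = 0.989) and CASP1 to KCTD10 (r = 0.985). The third of the genes closest to IL1RAP was IL1RAPL1 (r = 0.985), and the third closest to IL18 was SAA1 (r = 0.992), both from the pathway lists.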

How the data were processed

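RNA of EGI-1 and HUCCT1 cells was sequenced in 12 libraries, 2 for each of 6 groups. The authors deposited raw read counts per gene in 1 table, with no normalization. The submitters' processing notes name fastp, Trim Galore, HISAT2, featureCounts and GRCh38, whereas the methods of the study, which describe the RNA-seq of EGI-1 only, name fastp, STAR and RSEM. All deposited values were whole numbers. The notes mention RNA isolation with Trizol and the methods a column kit. The methods name a stranded total RNA kit with ribosomal RNA removal, while the use of strand, the treatment of multi-mapping reads and the annotation release are not given in the sources used here.

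Gene identifiers were matched to symbols with GENCODE 44 (60437 of 60651 genes, 214 not matched), and 0 sample columns were left unused. Counts were tested with edgeR 4.0.16 (R 4.3.3, limma 3.58.1): filterByExpr by group, TMM factors, robust quasi-likelihood fits and Benjamini-Hochberg adjustment over all genes tested, with calls at an adjusted p of 0.05. The 8 EGI-1 libraries, the 4 HUCCT1 libraries and all 12 were fitted separately, the last for comparisons between the lines. Levels are CPM with TMM factors of all 12 libraries, and RPKM divide these by union exon length. Genes that passed the filter only through the treated group were left out of counts of members and list genes, a step chosen after seeing the data. The scripts were tested on simulated data.

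The members and pathway lists were chosen with earlier results of these data known. Named pathway genes are the called genes with an absolute log2 fold change of at least 0.5, at most 8 per comparison by size, and other genes named were chosen after their values were seen. The most alike genes are the 3 with the highest Pearson r of log2 CPM (prior count 2). Alternatives were DESeq2 1.42.0, RLE and upper-quartile scaling, no filter, fits of only the 4 libraries compared, replicate blocks and leaving out each library. Leaving EGI-1 combination replicate 2 out of the pathway counts was added after seeing the data. Counting intervals and floors cover counting error only. With 2 libraries per group, standard errors borrow spread across genes, and fits that leave out a library assume that the lone one varies like the other groups.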

Additional observations from a re-analysis of the deposited data

Results flagged for a closer look

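The decitabine effect differed between HUCCT1 and EGI-1 in the interaction test of edgeR for 4 members, and IL36G is given as a description. The difference, HUCCT1 minus EGI-1 on the log2 scale, was 2.745 for IL1A and 3.002 for IL1B, each higher in HUCCT1, and -0.5857 for IL1RAP and -0.7374 for IL18, each lower in HUCCT1. In EGI-1 these 4 members had no called decitabine effect. The fitted difference of IL36G was 5.173, but IL36G passed the filter on low counts only through the HUCCT1 decitabine libraries and was not tested in EGI-1, so this value is no test. The lines received different doses, 1000 nM in HUCCT1 and 500 nM in EGI-1, and different media, and their library names carry different L numbers. These cannot be told apart from the line. Groups of 2 libraries are too small for a check of single outlying libraries.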

How the results depend on the processing

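IL36G is left out of these counts. For the 35 member effects called by edgeR, 516 values were computed under the alternatives: 516 kept their direction, 487 kept their call, and 26 effects lost none. In EGI-1 with decitabine 0 members were called, against 2 without the filter (leaving out a library, 0 to 2). With talazoparib 5 were called (1 to 6), and for the combination against talazoparib 1, against 3 without the filter and 2 with only the 4 libraries (1 to 3). Ranges were 3 to 6 for the combination against decitabine, 5 to 7 in HUCCT1 and 3 to 4 for the difference between lines. Signs reversed only when a library was left out, for effects that were not called: CASP1 with decitabine in EGI-1 (-0.09521, -0.06851; range -0.09521 to 0.175), the fitted IL36G value between vehicle groups (-0.114, -1.915; range -1.915 to 1.267), and departures from the sum for IL1A (-0.2985 to 0.02969), IL1B (-0.0796 to 0.01092), IL1R1 (-0.7225 to 0.1206), IL1RAP (-0.2593 to 0.06499) and IL18 (0.01911; range -0.1169 to 0.02656). Over all genes, decitabine in EGI-1 gave 122 calls, against 335 without the filter, 60 and 75 with the replicate block by title or library name and 43 with only the 4 libraries. Under settings that kept all libraries of the groups compared, the other all-gene counts that moved by over 1.5 times were 923 against 1851 (talazoparib, only 4 libraries), 1720 against 963 (combination against decitabine, only 4 libraries), 431 against 897 without the filter, 249 with the title block and 700 with only 4 libraries (combination against talazoparib), and 36 against 71 without the filter (departure from the sum). Leaving out 1 library gave 22 to 417 for decitabine in EGI-1, 247 to 1663 for talazoparib, 1850 to 5288 for the combination against vehicle (4194), 853 to 2544 against decitabine, 111 to 1007 against talazoparib, 27 to 85 for the departure and 2540 to 3865 for the difference between lines (4000). Upper-quartile scaling moved the share of higher calls for the combination against vehicle from 59.3% to 49.2%, and the all-gene median between the vehicle groups by -0.118. Same-numbered libraries had correlations from -0.0623 to 0.0935, so the numbers were not taken as pairs, and the replicate block by title number changed 1 member call (IL1RAP with talazoparib, 0.47, adjusted p = 0.05741).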
